A study of Mus musculus with 6 samples.

Results

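The nuclear receptors are transcription factors that bind DNA and, in most cases, a small fat-soluble ligand such as a steroid, a retinoid, a fatty acid or thyroid hormone. The 46 described here were a named list of steroid, metabolic and orphan receptors. Each was matched by its symbol to the probes of a mouse expression array, and where several probes carried the symbol the one with the highest mean was used. All 46 were found among the 17742 genes with a probe. Most receptors work by moving between corepressors and coactivators when ligand binds, many as a pair with an RXR, the shared partner receptor. In ovary and uterus the oestrogen and progesterone receptors carry the hormone cycle and Nr5a1 and Nr5a2 drive steroid production, while in brain the thyroid, glucocorticoid and orphan receptors of the Nr2 and Nr4a groups shape neuronal development and activity.

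The study measured 6 RNA samples from female BALB/c mice, 1 array each, labelled brain, ovary and uterus, either untreated (mock) or dosed orally with 200 mg/kg of the herbal decoction Sheng-Hua-Tang (SHT) over 7 days. The age of the mice, how many mice gave each sample, and whether the same mice gave all tissues are not stated in the labels. With 1 array per group, no difference within a tissue can be checked against replicates, and precision is limited by the small number of arrays. Values are the authors' linear intensities, and 6 values in a row below always run brain, ovary, uterus by label, with mock before SHT in each tissue. Array medians lay between 179 and 224. The 529 olfactory receptor genes, silent in most tissues, had 95th percentiles of 541, 275, 312, 403, 295 and 318, and a value under its array's percentile is called within the background spread.

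Tissue markers went against 4 of the 6 labels, so arrays are named by their labels only. Where a difference or count is given for brain, ovary or uterus below, the pair of arrays with that label is meant, not the tissue. Of 8 measured brain markers, 7 lay above the background spread on the arrays labelled SHT ovary and mock brain, with summed intensities of 158264 and 158950, against 910 to 5187 on the other 4. Of 9 measured ovary markers, 8 lay above it on the arrays labelled SHT brain and mock uterus, with sums of 93555 and 136798, against 1452 to 4689 elsewhere. The 10 squamous epithelium markers summed to 258691 and 404274 on the arrays labelled SHT uterus and mock ovary and to between 4129 and 8082 elsewhere. The 11 measured markers of uterus and lower reproductive tract summed to 200876 and 127453 on those 2 arrays, but also to 132824 on the array labelled SHT brain, and 9 to 10 of the 11 lay above the background spread on these 3 arrays. Hoxa13 was within the spread on all 6. Fat markers summed to 590 and 1015 on the arrays labelled SHT ovary and mock brain and to 35215 to 77163 on the rest, and the 4 measured skeletal muscle markers to 314 to 5370 over the 6. Without the 4 arrays whose markers go against their labels, no tissue keeps both a mock and an SHT array, so no comparison can be given without them. Their part in each difference below cannot be told apart from that of the treatment. In bulk tissue, fewer cells of a type and less RNA per cell cannot be told apart either.

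Of the 46 receptors, 35 lay above the background spread on at least 1 array (76.1%, against 65.9% of all 17742 genes) and 14 on all 6 (30.4%, against 36.5% of all genes). The receptors divided by the pair of arrays on which they were highest. The arrays labelled SHT ovary and mock brain were the 2 highest for 14 of the 35 (40.0%, against 28.1% of the 11685 genes above the spread). Those labelled SHT brain and mock uterus were highest for 7 (20.0% against 15.5%), and those labelled SHT uterus and mock ovary for 7 (20.0% against 14.9%). The other 7 receptors had other pairs on top. Some stood clearly apart, with both top arrays at least 2-fold above the other 4 (values within the background spread set to that array's percentile). On the first of these pairs they were 7 (Esrrg, Thrb, Nr1d1, Nr2e1, Nr2f1, Nr4a1 and Nr4a2), which is 20% of the 35 against 12.1% of those genes. On the second they were 4 (Esr2, Nr5a1, Nr5a2 and Nr0b1), 11.4% against 1.44% of genes. On the third it was Pgr alone, 2.86% against 2.40%.

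**Figure D1:**
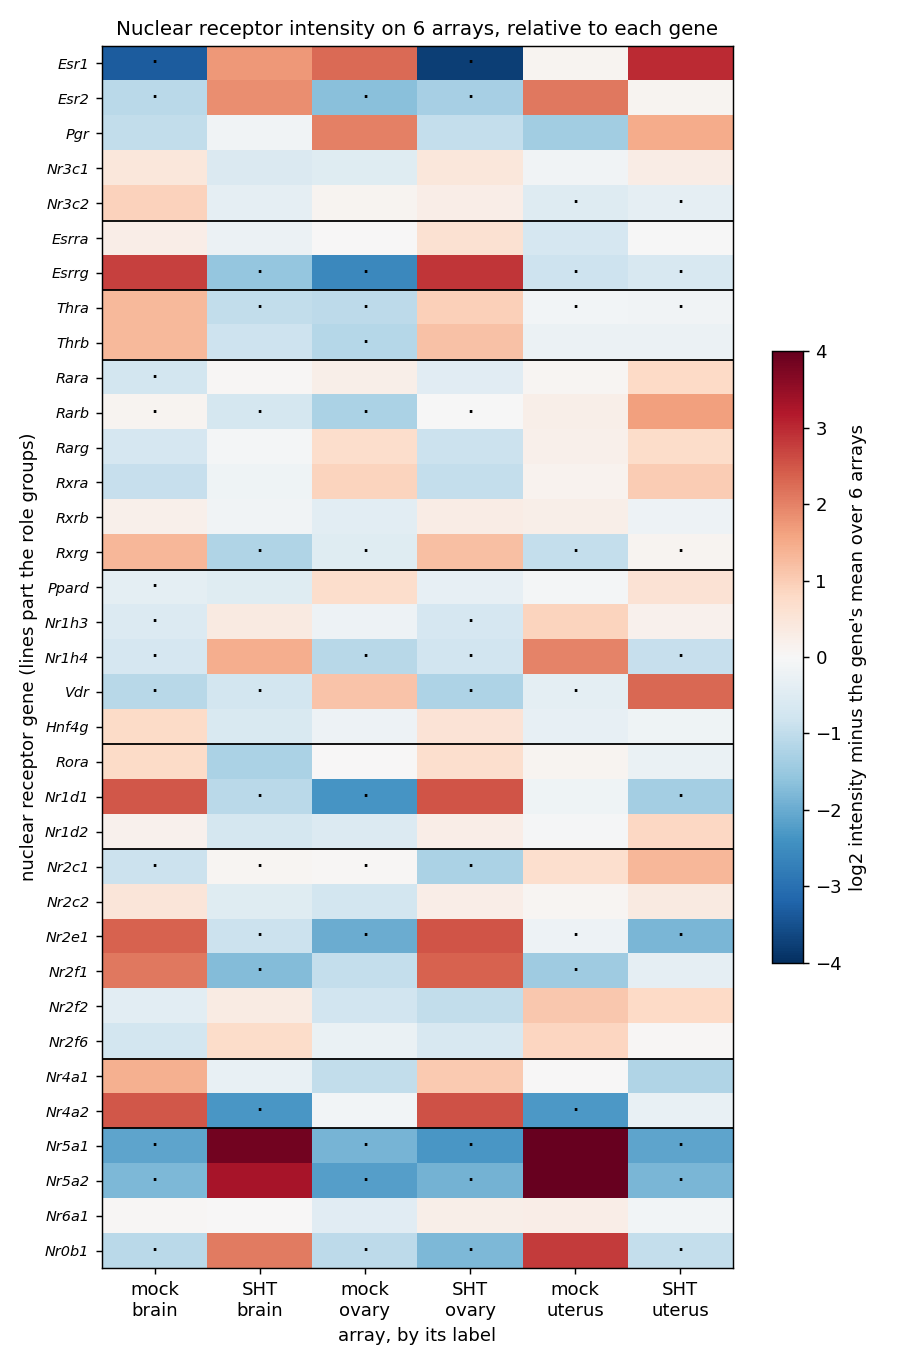
Intensity of the 35 nuclear receptors above the background spread on at least 1 array, as log2 intensity minus the gene's own mean over the 6 arrays (red higher, blue lower, colours end at 4 and -4). Columns are arrays by label, black lines part the role groups, and dots mark values within the background spread; Nr5a1, Nr5a2 and Nr0b1 are high on the arrays labelled SHT brain and mock uterus, and Nr1d1, Nr2e1, Nr2f1 and Nr4a2 on those labelled SHT ovary and mock brain.

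Promoter sequence was available from RefSeq (GRCm38.p6, 250 bases before to 50 after the gene's start) for 42 of the 46 receptors, and 4 motifs were searched on both strands. The hexamer AGGTCA, or TGACCT on the other strand, which many nuclear receptors bind, was in a promoter of 11 of the 42 receptors (26.2%) and of 18.1% of all genes in the table. The 3 sequences with it are shown because these receptors, Nr0b1, Nr1h4 and Nr5a2, were highest on the same 2 arrays, labelled SHT brain and mock uterus. Esr2, also highest there, is shown for an E-box (CACGTG, bound by clock factors, in 11.9% of receptors and 8.09% of genes). Nr2e1, from the receptors highest on the arrays labelled SHT ovary and mock brain, is shown for a cAMP response element (TGACGTCA, in 4.76% of receptors and 2.03% of genes). These 5 were chosen after their matches were seen. Capitals mark motif matches. They lie at chrX:86191525-86191824 (plus strand, match starting at position -126 from the gene's start), chr10:89506609-89506908 (minus strand, -214), chr1:136960399-136960698 (minus strand, -64), chr12:76177210-76177509 (minus strand, -72) and chr10:42583541-42583840 (minus strand, -125).
Nr0b1 promoter: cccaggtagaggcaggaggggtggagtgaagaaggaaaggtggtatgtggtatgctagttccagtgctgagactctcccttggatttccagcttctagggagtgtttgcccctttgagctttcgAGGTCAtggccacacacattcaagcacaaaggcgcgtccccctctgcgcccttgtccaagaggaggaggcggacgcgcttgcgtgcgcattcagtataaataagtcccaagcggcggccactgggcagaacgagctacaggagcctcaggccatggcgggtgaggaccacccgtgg
Nr1h4 promoter: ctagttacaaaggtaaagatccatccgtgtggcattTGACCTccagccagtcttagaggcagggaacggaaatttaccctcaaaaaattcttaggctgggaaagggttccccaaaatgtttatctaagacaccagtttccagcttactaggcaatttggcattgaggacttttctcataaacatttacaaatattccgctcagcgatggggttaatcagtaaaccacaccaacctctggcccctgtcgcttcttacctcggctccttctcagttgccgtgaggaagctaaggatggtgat
Nr5a2 promoter: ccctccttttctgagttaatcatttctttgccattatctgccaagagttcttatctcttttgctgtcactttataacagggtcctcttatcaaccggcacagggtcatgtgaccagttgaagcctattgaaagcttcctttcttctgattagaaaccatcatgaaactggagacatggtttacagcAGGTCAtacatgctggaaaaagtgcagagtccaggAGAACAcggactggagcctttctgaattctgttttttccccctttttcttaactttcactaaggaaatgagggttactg
Esr2 promoter: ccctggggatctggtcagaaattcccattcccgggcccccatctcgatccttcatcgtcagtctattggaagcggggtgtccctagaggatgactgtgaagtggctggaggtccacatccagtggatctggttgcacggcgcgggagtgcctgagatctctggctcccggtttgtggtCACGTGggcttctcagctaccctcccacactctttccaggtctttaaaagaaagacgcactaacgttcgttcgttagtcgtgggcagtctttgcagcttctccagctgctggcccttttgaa
Nr2e1 promoter: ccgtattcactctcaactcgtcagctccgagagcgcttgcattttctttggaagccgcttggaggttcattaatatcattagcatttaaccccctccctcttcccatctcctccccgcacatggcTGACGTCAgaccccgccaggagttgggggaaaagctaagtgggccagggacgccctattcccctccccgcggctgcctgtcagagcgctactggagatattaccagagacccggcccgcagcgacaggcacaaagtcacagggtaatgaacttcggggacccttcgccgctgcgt
The Nr5a2 window also holds AGAACA, a hexamer bound by some of the steroid receptors, at position -29. AGAACA or its reverse TGTTCT was in 4 of the 42 receptors (9.52%) and in 21.3% of genes. No motif overlapped another in these 5 windows. The second promoter listed for Nr5a2 holds TGTTCT and no AGGTCA, and none of the 4 motifs was found in the windows of Esr1, Pgr, Nr1d1 and Nr4a2.

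Among the steroid hormone receptors, Esr1, the main oestrogen receptor of uterus, read 129, 4327, 6286, 95.7, 1391 and 10351. It was thus within the background spread on the arrays labelled SHT ovary and mock brain and well above it on the other 4, highest on the array labelled SHT uterus. Esr2, the oestrogen receptor of granulosa cells, read 298, 2316, 198, 253, 2741 and 679. Its 2 high arrays were the mock uterus and SHT brain arrays by label, at least 3.41-fold above every other. The ratio between highest and lowest array was at least 25.7 for Esr1 and at least 8.78 for Esr2.

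Pgr, the progesterone receptor and itself a target of oestrogen in the reproductive tract, read 2488, 4452, 19510, 2497, 1844 and 13506. The arrays labelled SHT uterus and mock ovary were 3.03-fold or more above the rest, and the lowest was the array labelled mock uterus. The glucocorticoid receptor gene Nr3c1 was far more even, at 2113, 1023, 1086, 2115, 1388 and 1864, a 2.07-fold range. Nr3c2, the mineralocorticoid receptor gene, read 739, 304, 424, 473, 273 and 304, with the arrays labelled mock uterus and SHT uterus within the background spread.

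**Figure D2:**
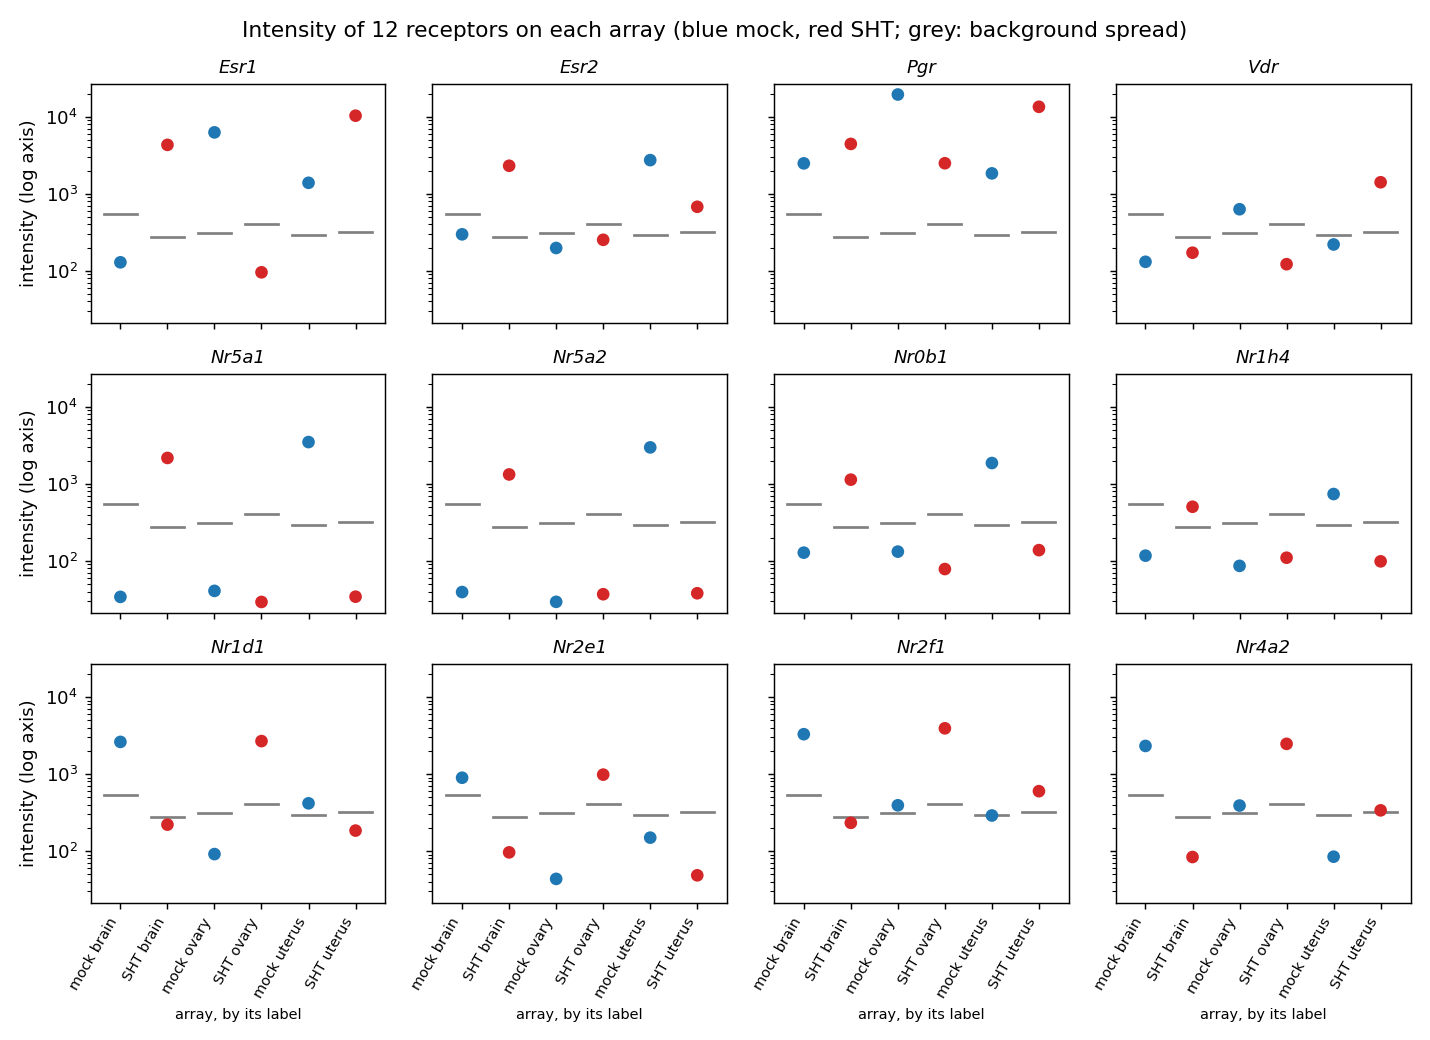
Intensity (log axis) of 12 receptors on the 6 arrays by label, blue for mock and red for SHT, 1 point per array with no replicates; grey bars are each array's 95th percentile of olfactory receptor genes. Nr5a1 and Nr5a2 read 1327 to 3495 on 2 arrays and at most 40.8 on the other 4, and Nr2e1 and Nr4a2 are highest on the arrays labelled SHT ovary and mock brain.

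Of the oestrogen-related receptors, orphans that control energy metabolism, Esrrg read 1590, 82.5, 40.1, 1756, 136 and 154, above the background spread only on the arrays labelled SHT ovary and mock brain. Esrra was above the spread on all 6, at 1281, 912, 1089, 1631, 673 and 1068. Esrrb was within it on all 6, between 102 and 204. The thyroid hormone receptors ran with Esrrg: Thrb read 1647, 379, 302, 1498, 566 and 571, and Thra read 642, 133, 126, 503, 243 and 239.

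Among the retinoid receptors, which bind retinoic acid, Rxra, Rarg and Rara were highest on the arrays labelled SHT uterus and mock ovary. Rxra read 1453, 2446, 5082, 1405, 3002 and 5471, and a second Rxra probe read 1158, 1974, 4775, 982, 2770 and 5139, the same order of the top 3 arrays. Rarg read 1355, 2073, 3505, 1188, 2487 and 3593, and Rara read 439, 764, 861, 538, 779 and 1269. Rarb, which retinoic acid induces in many cells, read 345, 197, 134, 321, 382 and 1002. It was above the spread on the arrays labelled mock uterus and SHT uterus. Rxrb, the broadly used partner, was nearly even at 6001, 4759, 3840, 6450, 6172 and 4514, a 1.68-fold range. Rxrg read 565, 98.2, 163, 524, 118 and 247, above the spread on the arrays labelled SHT ovary and mock brain.

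Of the 11 receptors of fatty acids, sterols, bile acids, foreign compounds and vitamin D, 5 were above the spread on at least 1 array. Vdr, the vitamin D receptor gene, read 131, 172, 631, 122, 220 and 1414, and was above the spread on the arrays labelled SHT uterus and mock ovary, the 2 with high squamous markers. Its second probe read 0.0208, 134, 350, 29.3, 207 and 721, with the same 2 arrays on top. Ppard, a fatty acid receptor with high use in skin, also led on those 2, at 446, 417, 948, 461, 548 and 869. Nr1h3, the oxysterol receptor LXR alpha, read 326, 613, 421, 304, 891 and 540. Nr1h4, the bile acid receptor FXR, read 117, 505, 86.2, 110, 739 and 98.7, above the spread on the arrays labelled SHT brain and mock uterus. Hnf4g read 864, 331, 437, 733, 404 and 449. The 6 within the spread on every array were Ppara (87.3 to 244), Pparg (1.97 to 3.32), Nr1h2 (47.4 to 73.5), Nr1i2 (18.1 to 80.5), Nr1i3 (36.2 to 60.3) and Hnf4a (60.7 to 83.0). The Pparg probe stayed there on arrays where Adipoq, an adipocyte hormone that Pparg drives, read 3070 to 18117, and whether that probe can detect its transcript is not known here.

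The receptors tied to the circadian clock were uneven. Nr1d1 (REV-ERB alpha), a haem-binding repressor of Arntl, read 2611, 220, 91.1, 2675, 416 and 184, with its top 2 arrays at least 6.27-fold above the rest. Its paralogue Nr1d2 read 571, 310, 345, 604, 482 and 900, above the spread everywhere and highest on the array labelled SHT uterus. Rora, an activator at the same elements, read 2191, 532, 1299, 2065, 1379 and 1062. Rorb was within the spread on all arrays, at 6.01 to 67.2.

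Nr2f1 (COUP-TF I), which patterns the cortex, read 3286, 232, 392, 3919, 289 and 598, at least 5.50-fold higher on its top 2 arrays than on the rest. Its paralogue Nr2f2 (COUP-TF II), a gene of stroma and veins needed for implantation, read 2627, 4415, 2094, 1787, 7538 and 6166. The paralogues thus had different arrays on top, Nr2f1 those labelled SHT ovary and mock brain and Nr2f2 those labelled mock uterus and SHT uterus. Nr2e1 (TLX), which keeps neural stem cells dividing, read 894, 95.9, 43.4, 981, 149 and 48.3. Nr2f6 read 1441, 3919, 1978, 1527, 4281 and 2476. Nr2c2 (TR4) was above the spread on all arrays at 6438, 3277, 2742, 5484, 4859 and 5904, whereas Nr2c1 (TR2) read 128, 245, 242, 95.9, 370 and 585. The photoreceptor gene Nr2e3 stayed within the spread, at 31.0 to 53.8.

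The Nr4a receptors are immediate early genes that act without a known ligand. Nr4a1 read 11849, 3562, 2231, 9089, 4471 and 1898, and Nr4a2, a gene of dopamine neurons, read 2314, 83.5, 389, 2462, 84.3 and 337. Both were highest on the arrays labelled SHT ovary and mock brain, and a second Nr4a2 probe did likewise with 1480 and 1279 there against 115 to 301. Nr4a3 was within the spread throughout (36.5 to 60.6).

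Nr5a1 (SF-1), which switches on the steroid-producing enzymes in gonad and adrenal, read 34.1, 2174, 40.8, 29.3, 3495 and 34.3. Nr5a2 (LRH-1), needed in granulosa cells for ovulation, read 39.4, 1327, 29.4, 36.9, 2981 and 38.0. Nr0b1 (DAX1), which has no DNA-binding domain of the usual kind and holds Nr5a1 in check, read 128, 1136, 132, 78.4, 1867 and 138. All 3 were above the spread on the arrays labelled SHT brain and mock uterus and on no other. Nr6a1, a germ cell factor, was even, at 831, 822, 597, 955, 962 and 747. Nr0b2 (SHP), another receptor that lacks the DNA-binding domain, was within the spread on all 6 arrays by the probe named NR0B2, at 45.6 to 123. A probe named by its synonym SHP was above the spread on all 6, at 638 to 13836, and which of the probes measures Nr0b2 is not known here.

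Over the 35 receptors, the arrays labelled SHT ovary and mock brain lay closest among the 15 pairs of arrays, with a median absolute log2 difference of 0.15, against 0.13 over all genes above the spread. Next were SHT brain with mock uterus (0.32 against 0.26) and mock ovary with SHT uterus (0.46 against 0.36). The 3 pairs that share a tissue label were farther apart, at 1.27 for brain, 0.88 for ovary and 0.77 for uterus, against 0.98, 0.99 and 0.45 over all genes. These are descriptions of single arrays, with no replicate.

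**Figure D3:**
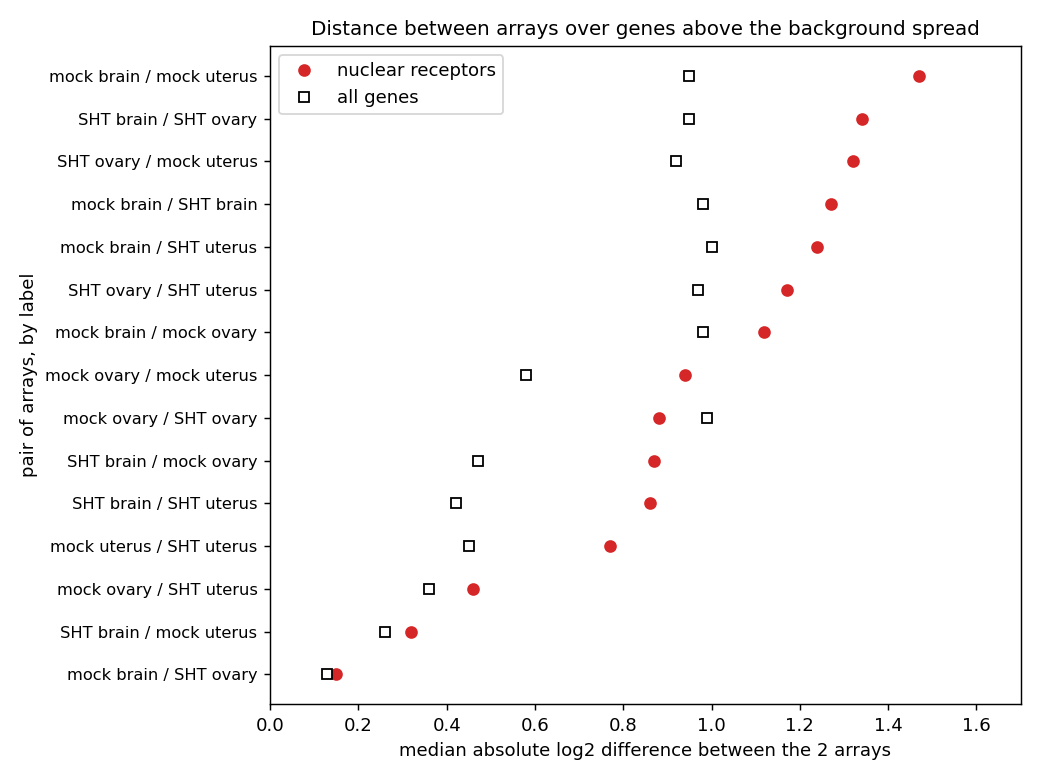
Median absolute log2 difference between the 2 arrays of each of the 15 pairs, for the 35 nuclear receptors above the background spread (red circles) and all 11685 genes above it (open squares). The 3 closest pairs for the receptors, at 0.15, 0.32 and 0.46, join arrays with different tissue labels.

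The design asks what SHT changed in each tissue. In the pair labelled brain, 33 receptors had a pair mean above the level floor (the median pair mean of all probes). Relative to the median gene, 8 were at least 2-fold higher on the SHT array and 12 at least 2-fold lower, together 60.6% of them against 46.5% of the 10742 genes above the floor. The shares were 24.2% higher against 24.8% of genes and 36.4% lower against 21.7% of genes, with a median of -0.37 for the receptors and 0.08 for those genes. There is no test of these counts, which use the values as read. In folds, a value within the background spread is replaced by that array's percentile, and the fold is then a lower bound ("at least").

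The 8 receptors higher on the SHT array in the pair labelled brain were Esr1 (at least 8.67-fold), Esr2 (at least 4.64-fold), Nr5a1 (at least 4.36-fold), Nr2f6 (2.95-fold), Nr5a2 (at least 2.66-fold), Nr0b1 (at least 2.28-fold), Nr1h3 (at least 1.23-fold) and Nr1h4 (at least 1.01-fold). Ovary markers were above the spread in 8 of 9 cases on the SHT array and in 1 of 9 on the mock array. Fat markers were above it in 5 of 8 and 0 of 8, and uterus and lower reproductive tract markers in 10 of 11 and 6 of 11. Esr1 was highest on the arrays labelled SHT uterus and mock ovary, each with 1 of 9 ovary markers above the spread. Which of these marker lists the receptors went with was not tested. Lower were Nr2f1 (at least 11-fold), Nr1d1 (at least 8.76-fold), Nr4a2 (at least 7.76-fold), Esrrg (at least 5.33-fold), Thrb (4.01-fold), Rora (3.79-fold), Nr4a1 (3.07-fold), Nr2e1 (at least 3-fold), Hnf4g (2.40-fold), Nr3c2 (2.24-fold), Thra (at least 2.15-fold) and Rxrg (at least 1.90-fold). The brain markers moved with these, 7 of 8 above the spread on the mock array and 1 of 8 on the SHT array. With values raised to the median of the olfactory receptor genes, the split turned to 12 higher and 11 lower. Centring the arrays by their medians gave 12 and 12. The receptors added were Pgr, Rara, Rxra and Nr2f2, all 4 just under 2-fold otherwise (0.87 to 0.96 on the log2 scale). All genes shifted the same way, from 2660 higher and 2330 lower to 3171 and 1977 with the raised values. After centring they were 2998 and 2043. The turn is therefore not shown to be particular to the receptors.

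In the pair labelled ovary, 30 receptors were above the floor, of which 10 were at least 2-fold higher on the SHT array and 6 lower, together 53.3% against 46.4% of 10686 genes. The shares were 33.3% higher against 23.0% of genes and 20.0% lower against 23.4%, with a median of 0.58 against 0.01. Higher were Nr2f1 (9.15-fold), Nr1d1 (at least 7.85-fold), Nr4a2 (5.79-fold), Esrrg (at least 5.15-fold), Thrb (at least 4.40-fold), Nr4a1 (3.73-fold), Nr2e1 (at least 2.88-fold), Rxrg (at least 1.54-fold) and Thra (at least 1.48-fold). The tenth was Rarb, within the spread on both arrays. Brain markers were above the spread in 7 of 8 cases on the SHT array and in 4 of 8 on the mock array. Lower on the array labelled SHT ovary were Esr1 (at least 17.0-fold), Pgr (8.53-fold), Rxra (3.95-fold), Rarg (3.22-fold), Ppard (2.24-fold) and Vdr (at least 1.71-fold). Squamous markers were above the spread in 10 of 10 cases on the mock array and in 5 of 10 on the SHT array. Fat markers were above it in 6 of 8 and 0 of 8, and uterus and lower reproductive tract markers in 9 of 11 and 6 of 11. Which of these marker lists the receptors went with was not tested.

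In the pair labelled uterus, 31 receptors were above the floor, with 5 at least 2-fold higher and 7 lower on the SHT array, together 38.7% against 21.4% of 10762 genes. The shares were 16.1% higher against 13.1% of genes and 22.6% lower against 8.27%, with a median of 0.17 against 0.05. Higher were Esr1 (7.52-fold), Pgr (7.41-fold), Vdr (at least 4.85-fold), Rarb (2.65-fold) and Nr2f1 (at least 2.05-fold). Nr2f1 was under 2-fold after quantile normalization, at 0.90 on the log2 scale, and after centring, at 0.94. Squamous markers were above the spread in 10 of 10 cases on the SHT array and in 4 of 10 on the mock array. Uterus and lower reproductive tract markers were above it in 10 of 11 and 8 of 11, and skeletal muscle markers in 3 of 4 and 0 of 4. For fat markers it was 6 of 8 on both arrays. Lower were Nr5a1 (at least 10.9-fold), Nr5a2 (at least 9.26-fold), Nr0b1 (at least 5.80-fold), Esr2 (3.99-fold), Nr4a1 (2.33-fold), Nr1h4 (at least 2.29-fold) and Nr1d1 (at least 1.29-fold). By its other probe, named AHCH, Nr0b1 was under 2-fold here, at -0.70 on the log2 scale. Ovary markers were above the spread in 8 of 9 cases on the mock array and in 1 of 9 on the SHT array.

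**Figure D4:**
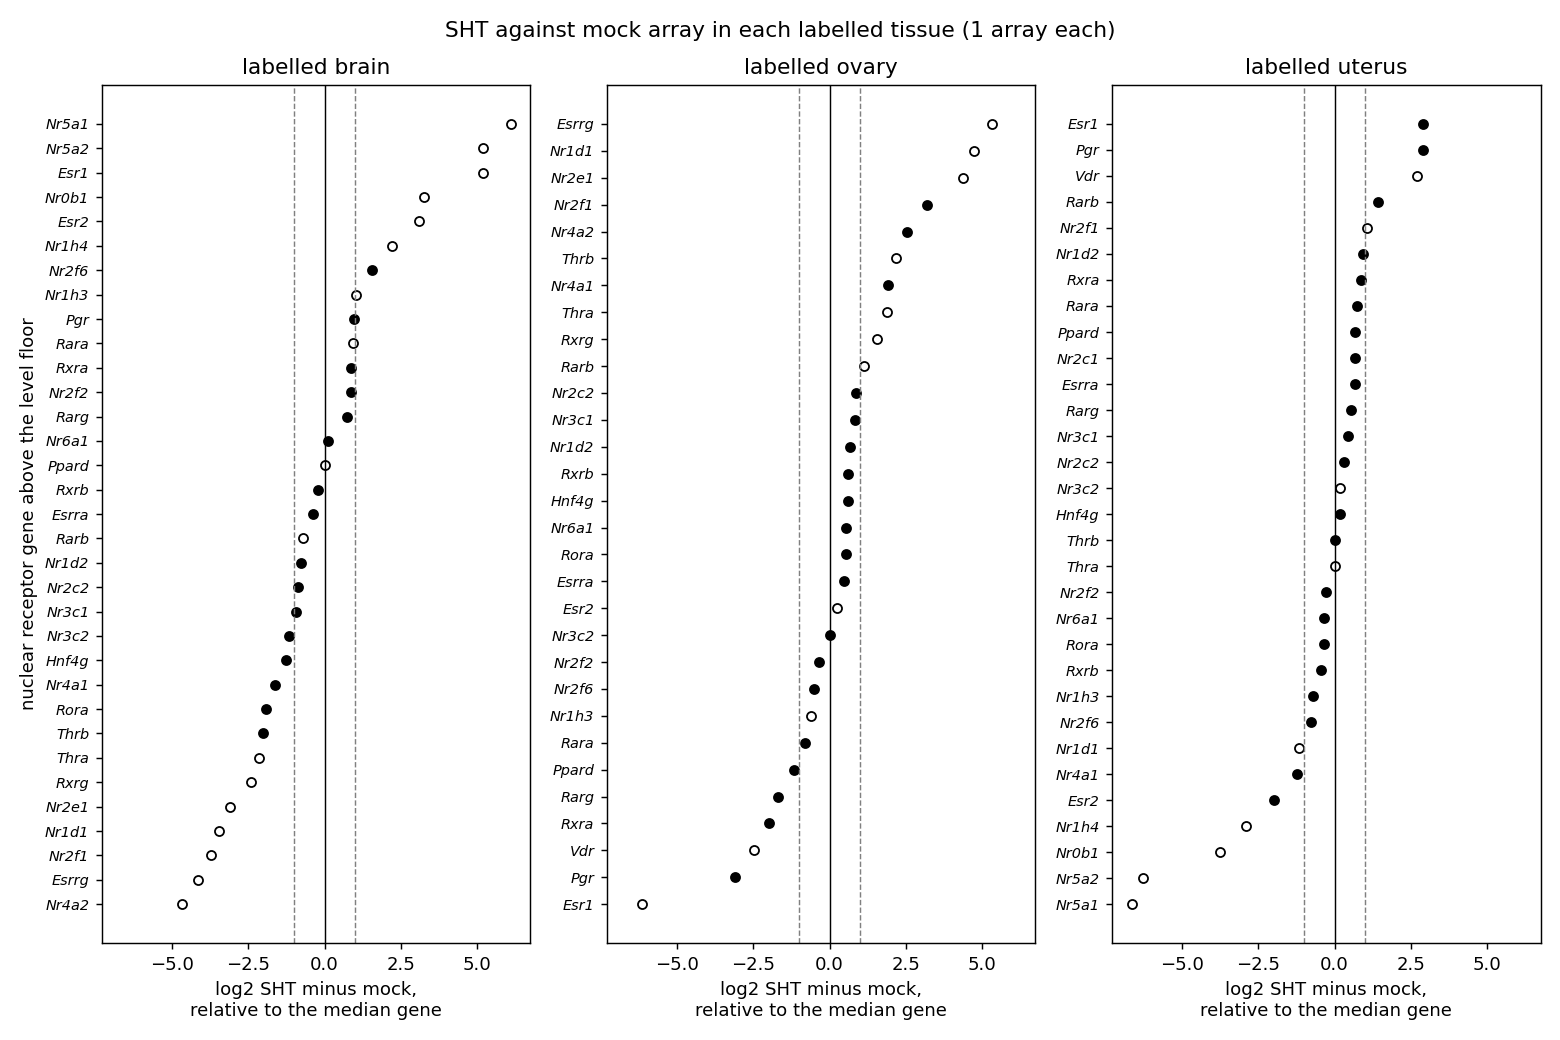
Log2 SHT minus mock intensity relative to the median gene for the receptors above the level floor in each labelled tissue (33, 30 and 31), 1 array against 1. Filled points have both arrays above the background spread, open points have at least 1 array within it, and dashed lines mark 2-fold; Esr1 is high in the pairs labelled brain and uterus and low in that labelled ovary.

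Averaged over the 3 labelled tissues, no receptor passed a test of SHT against mock. In a two-sided limma test with tissue as a block and p-values adjusted by Benjamini-Hochberg over all genes, 0 of 10759 genes passed an adjusted p of 0.05 (0%), 4 had an unadjusted p under 0.05, and none of these was among the 31 receptors tested. Every receptor had an adjusted p of 1 in limma, and the smallest unadjusted p was 0.437, for Rarb, with an average log2 difference of 0.61 (SE 0.71, n = 3 arrays per treatment, limma). Standard errors ran from 0.42 for Nr2f2 to 2.45 for Esr1, whose average was 0.64 from single values of 5.07, -6.04 and 2.90. The standard error holds the spread between labelled tissues and not that between mice. Because 4 of the 6 arrays go against their labels by their markers, each block joins arrays of unlike marker profile. The test therefore cannot decide whether SHT changed a receptor.

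The genes around the receptors were read from lists of partners, ligand enzymes and targets, each given as the number at least 2-fold higher and lower on the SHT array of those above the floor. Over all genes above the floor these shares were 24.8% and 21.7% in the pair labelled brain, 23.0% and 23.4% in ovary, and 13.1% and 8.27% in uterus, and several lists lay near or under them. Coregulators, the proteins that receptors recruit, counted 1 higher and 4 lower of 13 in the pair labelled brain, 3 and 1 of 14 in ovary and 1 and 0 of 14 in uterus. Ncoa1, a coactivator of steroid receptors, read 3389, 1198, 1339, 3139, 1874 and 1657, and the corepressor enzyme Hdac3 read 2340, 2869, 2044, 2158, 3313 and 2915. Chaperones and immunophilins, which hold steroid receptors ready for ligand, counted 1 higher and 0 lower of 6 in brain, 0 and 0 in ovary, and 0 and 1 in uterus. The gene past 2-fold was Fkbp5, an immunophilin that glucocorticoids induce and that is also in the list of their targets, at 1056, 2533, 442, 939, 7668 and 878. On the SHT array Fkbp5 was 2.60-fold higher in the pair labelled brain and 8.63-fold lower in that labelled uterus. Hsp90ab1 read 22382, 24223, 22538, 20217, 32190 and 27044.

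Enzymes and carriers of receptor ligands counted 8 higher and 0 lower of 14 in the pair labelled brain, 1 and 8 of 13 in ovary, and 6 and 3 of 15 in uterus. Aldh1a1, which makes retinoic acid, read 1838, 27682, 4215, 1762, 38594 and 2870, and Crabp2, which delivers it to its receptor, read 1002, 6048, 12259, 778, 1970 and 9413. Oestrogen and progesterone targets counted 10 and 0 of 11, 0 and 7 of 9, and 7 and 3 of 12. The iron-binding protein gene Ltf, an oestrogen target in mouse uterus, read 1290, 42062, 22638, 1168, 22691 and 62708. It was low on the 2 arrays with high brain markers, where Esr1 was within the spread. Elsewhere Ltf did not follow Esr1 throughout. It was nearly equal on the arrays labelled mock ovary and mock uterus, where Esr1 read 6286 and 1391. Ltf is also in the list of uterus markers. Targets of Nr5a1 and Nr5a2 counted 7 and 0 of 7, 1 and 1 of 4, and 0 and 7 of 7. Among them Akr1c18, which inactivates progesterone, read 630, 44640, 360, 786, 49970 and 347, and Scarb1, which takes up cholesterol, read 587, 9625, 732, 547, 23019 and 1299, both highest on the 2 arrays where Nr5a1 was above the spread.

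PPAR targets counted 7 and 0 of 9, 0 and 7 of 10, and 1 and 3 of 10. Angptl4, an inhibitor of lipoprotein lipase, read 577, 10674, 5464, 582, 12939 and 4272, high on the 4 arrays where fat markers were also high. Glucocorticoid and mineralocorticoid targets counted 1 and 4 of 12, 4 and 1 of 12, and 2 and 1 of 11, and LXR targets 4 and 2 of 8, 1 and 1 of 8, and 3 and 1 of 8. Retinoid targets, a list that includes Rarb, counted 3 and 0 of 4, 1 and 3 of 4, and 3 and 0 of 4. Thyroid hormone targets counted 3 and 3 of 7, 3 and 2 of 7, and 2 and 2 of 7, and the target Klf9 read 19833, 5024, 7043, 22869, 9703 and 20240. Clock partners counted 1 and 5 of 11, 6 and 2 of 11, and 4 and 0 of 11, with the output gene Dbp at 13628, 8706, 6849, 15130, 12713 and 11900. Immediate early genes counted 2 and 3 of 9, 4 and 2 of 8, and 3 and 0 of 7, with Egr1 at 30188, 16225, 5155, 32322, 13231 and 11125. Of the 7 measured bile acid and liver targets, at most 3 were above the floor in a pair, and 1, the thyroxine carrier Ttr, passed 2-fold, in ovary (at least 7.38-fold higher). In the pair labelled brain Ttr was at least 5.39-fold lower, with a pair mean under the floor.

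The lists' median log2 differences in the pairs labelled brain, ovary and uterus stood beside 0.08, 0.01 and 0.05 over all genes above the floor. The widest were those of Nr5a1 and Nr5a2 targets (6.27, 0.23 and -7.16), oestrogen and progesterone targets (4.05, -4.40 and 1.37), PPAR targets (2.96, -2.80 and -0.16), retinoid targets (2.19, -2.53 and 1.37) and ligand enzymes (1.81, -1.98 and 0.15). In the pair labelled brain the median was 6.68 for fat markers and 5.67 for ovary markers, but these share genes with the lists: Adipoq, Fabp4, Plin1 and Ucp1 are both PPAR targets and fat markers, and Star, Inha and Hsd3b1 are both Nr5a targets and ovary markers. Clock partners (-0.79, 1.02 and 0.27), glucocorticoid and mineralocorticoid targets (-0.75, 0.81 and -0.08) and immediate early genes (-0.53, 0.72 and 0.74) were negative in the pair labelled brain and positive in that labelled ovary. The remaining medians were 0.29, -0.44 and 0.23 for LXR targets, 0.78, -0.18 and -0.06 for thyroid hormone targets, -0.38, 0.72 and -0.59 for bile acid and liver targets, -0.06, -0.28 and 0.31 for coregulators, and 0.23, 0.21 and -0.27 for chaperones. Other genes stood in several lists too, such as Ltf, Klf9, Crabp2, Fkbp5 and Ttr, and the receptors Rarb and Nr1h3 are list members, so the lists are not independent.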

How the data were processed

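Per the labels' protocols, each array carried amplified RNA of 1 sample in the Cy5 dye. The deposited table holds linear intensity for 26423 probes on 6 arrays. The submitters' processing notes name limma without a role, and how the authors corrected and scaled the arrays was not given in the sources used here. Values were raised to each array's 5th percentile of positive values, then log2 was taken, and arrays were not scaled to each other. Symbols of 20377 probes were read from the platform annotation and updated through RefSeq (GRCm38.p6): 18213 were current, 2126 were synonyms and 38 were kept. Probes named by a current symbol took precedence over synonyms, and the highest-mean probe stood for each gene. Differences are relative to the median gene of a pair (shifts of -0.12, 0.13 and -0.02 on the log2 scale in brain, ovary and uterus). The average SHT minus mock difference was fitted with limma 3.58.1 (R 4.3.3, eBayes with a trend, tissue as a block) on genes above the level floor. The fit was tested on simulated data whose tissue differences followed the labels. The markers of 4 of the 6 arrays here do not, so that check does not cover these data.

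All receptors are accounted for. Values on all arrays are printed for those above the olfactory 95th percentile on at least 1 array, and from other lists up to 3 genes of the highest mean are named. Adipoq in the account of Pparg, Fkbp5 and Hoxa13 were chosen after their values were seen, as was the use of the olfactory percentile. The members and lists were chosen with earlier results of these data known. Alternatives were other scalings, level floors, probe rules, a 3-fold threshold and fits without the block, the trend or a tissue.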

Additional observations from a re-analysis of the deposited data

Results flagged for a closer look

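Receptors are given here whose SHT arrays lay at least 2-fold higher than mock in 1 labelled tissue and at least 2-fold lower in another, with values within the background spread set to that array's 95th percentile of olfactory receptor genes. With 1 array per group none of these differences was tested, and 4 of the 6 arrays go against their tissue labels by their markers. How many of all genes reverse in this way was not counted. Of genes above the level floor, 46.5%, 46.4% and 21.4% were past 2-fold in the pairs labelled brain, ovary and uterus. The list is therefore not shown to be particular to the receptors. The number is the log2 SHT minus mock difference of the first labelled tissue minus that of the second. Because of those replaced values it is a lower bound in size for every receptor but Pgr and Nr4a1, whose values were all measured. Between the pairs labelled brain and ovary it was 7.21 for Esr1, -4.78 for Esrrg, -4.14 for Thrb, -6.10 for Nr1d1, -3.11 for Nr2e1, -6.66 for Nr2f1, -3.52 for Nr4a1 and -5.49 for Nr4a2. Between those labelled ovary and uterus it was -7.00 for Esr1, -5.98 for Pgr and 3.12 for Nr4a1. Between those labelled brain and uterus it was 4.21 for Esr2, -4.50 for Nr2f1, 5.56 for Nr5a1, 4.62 for Nr5a2 and 3.72 for Nr0b1.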

How the results depend on the processing

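Of 57 recomputed counts and summaries, 49 stayed within 1.5 times the value reported. These include the limma count, 0 in all 8 alternative fits, from a test that cannot decide on SHT. They also include the number of receptors higher in the pair labelled brain at 12 against 8, exactly 1.5 times. There the receptors higher no longer fell short of those lower. The number of all genes higher rose in these settings too. It was 3171 with values raised to the olfactory median and 2998 after centring, against 2660. The number lower fell to 1977 and 2043, against 2330. With the level floor at the 75th percentile, fewer receptors were counted: 1 higher and 2 lower in the pair labelled brain, 3 and 3 in ovary, and 2 and 2 in uterus. Of all genes at that floor, 1309 were higher and 1140 lower in the pair labelled brain. The counts were 1272 and 1186 in that labelled ovary, and 590 and 311 in that labelled uterus. In uterus the number higher was 8 with no floor and 3 with a 3-fold threshold, against 5. With no floor 2086 genes were higher there and 1625 lower, and genes were not counted at the 3-fold threshold. Of 479 recomputed differences of single receptors, 465 kept their direction or stayed under 2-fold as before, 5 dropped under 2-fold, 9 moved past it and 0 of those at least 2-fold changed sign. The 5 were Nr3c2 in brain with values raised to the olfactory median (-0.95), Nr1h3 in brain as deposited, not relative to the median gene, an alternative added after the data were seen (0.91), Nr2f1 in uterus after quantile normalization (0.90) and centring (0.94), and Nr0b1 in uterus by the probe named AHCH (-0.70). With each receptor's other probe, 36 receptors were above the background spread in place of 35. The limma count stayed at 0 in all 8 alternative fits, in which 3 to 461 genes had an unadjusted p under 0.05. Without the pair labelled ovary these included Esr1 and Nr4a1, and without brain Nr4a2. The labels give no replicate numbers, so the tissue label was the pairing of mock and SHT arrays, and without that block 3 genes had an unadjusted p under 0.05 in place of 4. Arrays give no depth, and by the probes used, 11 receptors lay inside the background spread on every array, of which Nr0b2 has the other probe named SHP above it.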

Other observations

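Other probes carried older names of 2 receptors. The probe named SHP, an older name of Nr0b2 in the RefSeq table, read 13836, 638, 707, 13286, 769 and 982 for brain, ovary and uterus by label, with mock before SHT in each, while the probe named NR0B2 read 123, 65.6, 49.4, 95.9, 95.8 and 45.6. The first was above the background spread on all 6 arrays and the second on none, and which of them measures Nr0b2 is not known here. The probe named AHCH, an older name of Nr0b1, read 164, 412, 262, 158, 504 and 306, with the same 2 arrays on top as the probe named NR0B1 and a smaller range.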
